A study of Mus musculus with 8 samples.

Results

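The genes described here are 10 core transcription factor genes of the heart, Gata4, Gata6, Nkx2-5, Tbx5, Tbx20, Mef2c, Mef2a, Hand1, Hand2 and Isl1. They were chosen as named regulators, with earlier results of these data known, and all 10 were found among the 37273 genes, 22367 of them protein-coding, that the GENCODE annotation places on the autosomes, X and Y of the mouse build mm9. BRG1 ChIP-seq was carried out on hearts of adult C57BL/6 mice, aged 10 to 12 weeks per the labels, that had received thymosin β4 (Tβ4), a small actin-binding peptide, or its vehicle PBS by daily intraperitoneal injection for a week. Myocardial infarction (MI) was then induced by tying off the left anterior descending artery for good, injections were repeated on the day of surgery and again later, and whole hearts were collected 4 days after MI. The dose of Tβ4 was 12 mg per kg, and each of the groups gave 2 ChIP libraries with an anti-BRG1 antibody and 2 input libraries, 8 in all. The methods name the substrain as C57BL/6J and state a somewhat older age for adult mice used in MI experiments. The values below come from a deposited list of BRG1 regions whose name refers to Tβ4 and to input.

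That list held 524614 regions, each given by its chromosome, start and end, without a height or a p-value and without separation of the duplicates. The regions covered 25.8% of the genome, and 4 of them were longer than 100 kb. The methods give bdgcomp as the MACS2 function used, but the list is named in the manner of bdgdiff, another function. The name carries what reads as a cutoff and a condition label, but whether these define a region, and by what contrast, is uncertain. If the list holds only regions assigned to a single condition, others would be missing from it, so a stretch without a region need not lack BRG1. Without heights or separate duplicates, the values carry no error, the depth behind them is unknown, and no test was made. Data of the PBS-primed hearts, the inputs and signal tracks were not analysed here, so nothing below is a difference between Tβ4 and PBS. Because whole hearts were used, the cell types in which BRG1 occupied a gene cannot be told apart.

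BRG1 is the ATPase of SWI/SNF chromatin-remodelling complexes, which move or evict nucleosomes and so change access to promoters and enhancers. The transcription factors considered here bind each other's control regions and those of contractile genes, and together they establish and maintain the cardiac lineages. In the embryonic heart, SWI/SNF complexes are known to act with GATA, NK2 and T-box factors, and loss of BRG1 from the heart is lethal during development.

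Each gene was described by the regions that lay, by at least 1 bp, in its body and the 5 kb on each side of it, and by the share of the bases of that window that regions covered. A total of 131 regions lay in the 10 windows. At least 1 region was present in the windows of 9 of the 10 genes, against 97.5% of all protein-coding genes, and the gene without any was Hand1. A region overlapped the gene body in 8 of 10 genes (84.1% of all protein-coding genes) and came within 5 kb of the gene start in 7 of 10 (90.5%). The start itself, taken as the 5′ end of the gene record, lay in a region in 3 of 10 genes, Gata6, Tbx5 and Hand2, against 24.2% of all protein-coding genes, so that this share was near the background.

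**Figure D1:**
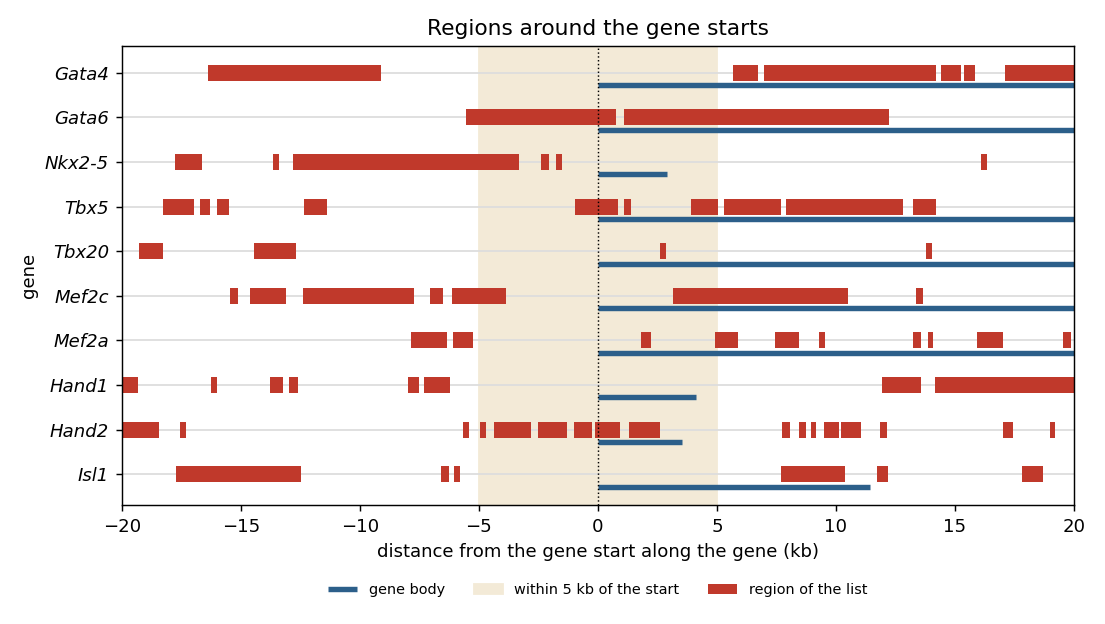
Regions of the list (red bars) within 20 kb of the starts of the 10 genes, drawn by their distance from the start in kb, with the gene body as a blue line and the 5 kb on each side of the start shaded. Regions lie over the starts of Gata6, Tbx5 and Hand2, whereas the shaded stretch is empty in Gata4, Hand1 and Isl1.

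Gata4 and Gata6 encode zinc finger proteins that bind GATA sequences and act early in the specification of heart muscle. Their starts were at opposite ends of the set. Gata6, at chr18:11052508-11085633 on the plus strand, had 96.4% of the bases within 5 kb of its start in regions, a share exceeded by 1 of the 200 protein-coding genes nearest to it in length. A region of 6270 bp, chr18:11046990-11053259, lay over the start, and a second of 11130 bp, chr18:11053620-11064749, began 1.11 kb downstream of it and was the longest in any of the 10 windows. At this end of the gene the list was therefore almost continuous. Of the coding bases of Gata6, 88.4% lay in regions, and the remaining 3 regions of its window were 270 to 630 bp long. A long intergenic RNA gene, 1010001N08Rik, starts on the opposite strand 57 bp from the start of Gata6, and regions covered 100% of it, so the signal there cannot be assigned to either gene.

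Gata4, at chr14:63817759-63890529 on the minus strand, had no region within 5 kb of its start. The closest lay 5.68 kb inside the gene and 9.11 kb upstream, which left 14.8 kb around the start without a region, and the start was farther from a region than that of 92.5% of all protein-coding genes. Within the body, however, long regions were found. The window held 14 regions, or 0.169 per kb against a median of 0.221 for genes of like length, yet they covered 28.7% of it against a median of 26.2%. The longest, chr14:63876330-63883529, spanned 7200 bp of an intron. Of the 14 regions, 10 were confined to introns, 1 overlapped a coding exon and 1 an untranslated stretch of an exon. The annotation lists 6 transcript starts for Gata4, none of which lay in a region, including a group 26.4 kb inside the gene around which no region lay within 5 kb either. The start farthest inside, at 58.1 kb, had 3 regions within 5 kb.

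Nkx2-5 encodes an NK2 homeodomain protein, a regulator of conduction and chamber genes. The gene, at chr17:26975609-26978510 on the minus strand, is 2.90 kb long, and its body held no region, as did the bodies of 70 of the 200 genes of like length. All 3 regions of its window lay upstream of the start. The longest, chr17:26981820-26991299, lay at -12.8 to -3.31 kb, was 9480 bp long and made up 94.3% of the summed length of the 3 regions. It was also longer than 99.4% of the regions of the whole list. This longest region reached beyond the window, so only a part of its length counts towards the covered share. The window of Nkx2-5 had 2261 bp in regions and was covered to 17.5%, against a median of 21.5% for genes of like length.

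Tbx5 and Tbx20 encode T-box proteins. Tbx5 is required for the atria, the left ventricle and the conduction system, and its mutation causes Holt-Oram syndrome, whereas Tbx20 acts in chamber growth and in the maintenance of adult heart muscle. The genes are of nearly equal length, 50.6 and 51.1 kb, but differed in their coverage. Regions covered 27.99% of the window of Tbx5 (chr5:120284672-120335227, plus strand) and 8.64% of that of Tbx20 (chr9:24527648-24578746, minus strand), with like-length medians of 27.3% and 27.5%. Only 2 of the 200 genes of like length had a lower covered share than Tbx20.

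In Tbx5 the regions gathered at the 5′ end. When the gene body was divided into 4 equal parts, 73.9% of the first part lay in regions, followed by 11.5%, 1.90% and 15.5%. A region of 1800 bp, chr5:120283710-120285509, lay over the start from -0.962 to +0.837 kb, and regions of 1110, 2400 and 4890 bp farther inside each overlapped a coding exon. Of the 13 regions of the window, the longest, 5550 bp, was placed downstream of the gene, where the 50 kb flank was covered to 45.8%. This was the highest share among the upstream and downstream flanks of the 10 genes. In Tbx20, by contrast, all 8 regions were confined to introns, none of its 10 exons was touched, and the longest, chr9:24549630-24551669, measured 2040 bp. The 50 kb upstream of Tbx20 was also sparse, with 5 regions and a covered share of 9.84%, the lowest of the 10 genes on that side, whereas the downstream 50 kb held 11 regions and was covered to 30.7%.

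The sequences that follow show the start of Tbx5, which lay wholly within a region, and the shortest regions next to the starts of Tbx5 and Tbx20. The start window of Tbx5, chr5:120284422-120284721, runs from 250 bp before the start to 50 bp after it and ends in runs of dinucleotide repeats. The Tbx5 region, chr5:120285780-120286049, lies in an intron 1.11 kb inside the gene, and the Tbx20 region, chr9:24575880-24576149, lies in an intron 2.60 kb inside the gene. All are on the strand of the gene, 5′ to 3′, in mm9. Capitals mark matches on either strand to the letters AGATAA for GATA factors, AAGTG for NK2 factors, AGGTGT for T-box factors, TATTTATA for MEF2 factors or CANNTG for the E-box of helix-loop-helix factors, of which the NK2 and E-box letters can share bases.
Tbx5 start: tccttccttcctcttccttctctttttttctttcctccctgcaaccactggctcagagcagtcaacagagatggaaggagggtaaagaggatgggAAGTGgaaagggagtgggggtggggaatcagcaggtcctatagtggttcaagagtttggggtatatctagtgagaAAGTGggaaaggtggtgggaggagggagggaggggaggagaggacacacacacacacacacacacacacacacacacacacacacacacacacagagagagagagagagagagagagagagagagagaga
Tbx5 intron region: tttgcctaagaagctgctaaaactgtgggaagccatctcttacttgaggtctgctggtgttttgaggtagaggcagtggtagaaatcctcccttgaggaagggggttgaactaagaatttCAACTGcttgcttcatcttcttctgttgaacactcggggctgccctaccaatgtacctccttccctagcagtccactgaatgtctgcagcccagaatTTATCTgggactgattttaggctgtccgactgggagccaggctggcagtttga
Tbx20 intron region: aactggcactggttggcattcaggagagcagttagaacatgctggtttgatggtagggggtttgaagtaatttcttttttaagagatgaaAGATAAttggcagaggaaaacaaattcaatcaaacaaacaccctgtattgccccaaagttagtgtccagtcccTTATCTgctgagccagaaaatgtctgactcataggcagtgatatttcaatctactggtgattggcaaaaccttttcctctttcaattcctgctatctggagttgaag
The start of Tbx5 held 2 NK2 matches, and 45.8% of all protein-coding start windows of this length held at least 1. The start window of Gata6, not shown, also lay wholly within a region and held no match. That of Gata4, free of regions, held 2 GATA and 2 NK2 matches. The intron region of Tbx5 had 1 GATA and 1 E-box match and that of Tbx20 had 2 GATA matches, where 16.1% of all regions of 270 bp held a GATA match and 77.3% an E-box match. The T-box and MEF2 letters, absent from these sequences, were held by 13.0% and 1.69% of the start windows and by 13.9% and 3.37% of the regions of 270 bp. A match is only a run of letters and does not show that a factor was bound.

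Mef2c and Mef2a encode MADS box proteins that switch on contractile and metabolic genes in muscle. They are the longest genes of the set, 163.7 and 141.7 kb, and held most of its regions. Mef2c (chr13:83643033-83806684, plus strand) had 34 regions in its window and a covered share of 32.5%, against a like-length median of 27.6%. In Mef2a (chr7:74376049-74517744, minus strand) there were 44 regions and a share of 30.5%, against 27.3%. The similar shares were made up differently, since the median region was 1035 bp long in Mef2c and 510 bp in Mef2a. Mef2a had 0.290 regions per kb, more than 185 of the 200 genes of like length, whereas Mef2c had 0.196 per kb, below the like-length median of 0.209.

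Within Mef2c, coverage was greatest in the third of the 4 equal parts of the body, at 71.4%, compared with 30.3%, 19.6% and 11.9% in the other parts from the 5′ end. The longest region, chr13:83723400-83733479, was 10080 bp long, began 80.4 kb inside the gene and overlapped a coding exon. In Mef2a the parts were covered to 28.3%, 41.8%, 35.9% and 20.7%, and the longest region, chr7:74434410-74441159, measured 6750 bp. Most regions of both genes were confined to introns, 28 of 34 in Mef2c and 34 of 44 in Mef2a. Introns made up 156256 of the 163652 bp of Mef2c and 135365 of the 141696 bp of Mef2a. Neither gene start lay in a region. Each had, however, a further annotated transcript start that did, 20.9 kb inside Mef2c and 75.4 kb inside Mef2a. The other inner starts of Mef2a, at 0.031 and 55.9 kb, lay outside regions. With any transcript start allowed, 5 of 10 genes had a region over a start, against 37.3% of all protein-coding genes. Around the gene start of Mef2a, regions covered 5.06% of the bases within 5 kb, and around that of Mef2c 29.5%.

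Hand1 and Hand2 encode basic helix-loop-helix proteins with complementary roles in the ventricles, and Hand2 is also required in the outflow tract and the epicardium. Both genes are short, 4.11 and 3.54 kb, yet they marked the extremes of the set. Hand2 (chr8:59799780-59803314, plus strand) had 8 regions in its window, which covered 48.4% of it, the highest share of the 10 genes, with a like-length median of 23.0%. Its 0.591 regions per kb exceeded those of 191 of 200 genes of like length. Of these regions 6 lay within 5 kb of the start, and 1, chr8:59799660-59800709, lay over it from -0.120 to +0.929 kb. They formed a chain with short gaps, and when regions within 500 bp were joined, the 8 became 2. The covered share of the gene body was 63.6%, and the part nearest the 3′ end was free of regions. The high density of Hand2 thus depended on the division of the chain, since after joining it exceeded that of 39.2% of genes of like length.

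The start of Hand2, chr8:59799530-59799829, is shown because 2 neighbouring regions reached into it. The region over the start held 170 of its 300 bases and the next region upstream another 10. It had 2 E-box matches, 1 of which shared bases with an NK2 match, and 1 GATA match. None of these lay in the region over the start, 1 E-box match lay in the region upstream, and the others fell in the gap between the regions. Among all protein-coding start windows, 69.6% held an E-box match and 10.3% a GATA match.
Hand2 start: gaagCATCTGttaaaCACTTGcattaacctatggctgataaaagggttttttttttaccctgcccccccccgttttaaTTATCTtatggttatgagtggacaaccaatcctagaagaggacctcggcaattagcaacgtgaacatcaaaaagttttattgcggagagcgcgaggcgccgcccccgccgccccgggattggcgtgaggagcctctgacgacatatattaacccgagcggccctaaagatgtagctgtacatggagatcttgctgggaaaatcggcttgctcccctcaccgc

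Hand1 (chr11:57642207-57646320, minus strand) had no region in its body or in the 5 kb on either side, as did 7 of the 200 genes of like length. The closest regions lay 6.21 kb upstream and 11.9 kb downstream of its start, which left 18.2 kb without a region, the longest such stretch around a start in the set. A small gene, Gm11003, starts 4.95 kb upstream on the other strand and had no region either. Farther out the locus was not empty. The 50 kb upstream and downstream of Hand1 held 14 and 8 regions and were covered to 24.9% and 27.5%, close to the medians of 24.6% on both sides over all protein-coding genes.

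Isl1 encodes a LIM homeodomain protein that marks progenitors of the second heart field and is largely silent in the adult myocardium. The gene (chr13:117088478-117099896, minus strand) had 2 regions in its window, with a covered share of 14.7% against a like-length median of 26.6%. The longer, chr13:117089520-117092219, was 2700 bp long and overlapped coding sequence near the 3′ end, and the other, of 450 bp, lay downstream of the gene. No region came within 5 kb of the start, the closest being 5.79 kb upstream. Isl1, Gata4 and Hand1 were the 3 genes with no region this close, whereas 90.5% of all protein-coding genes had one. A region within 10 kb was found in all 10 genes and in 98.3% of protein-coding genes.

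**Figure D2:**
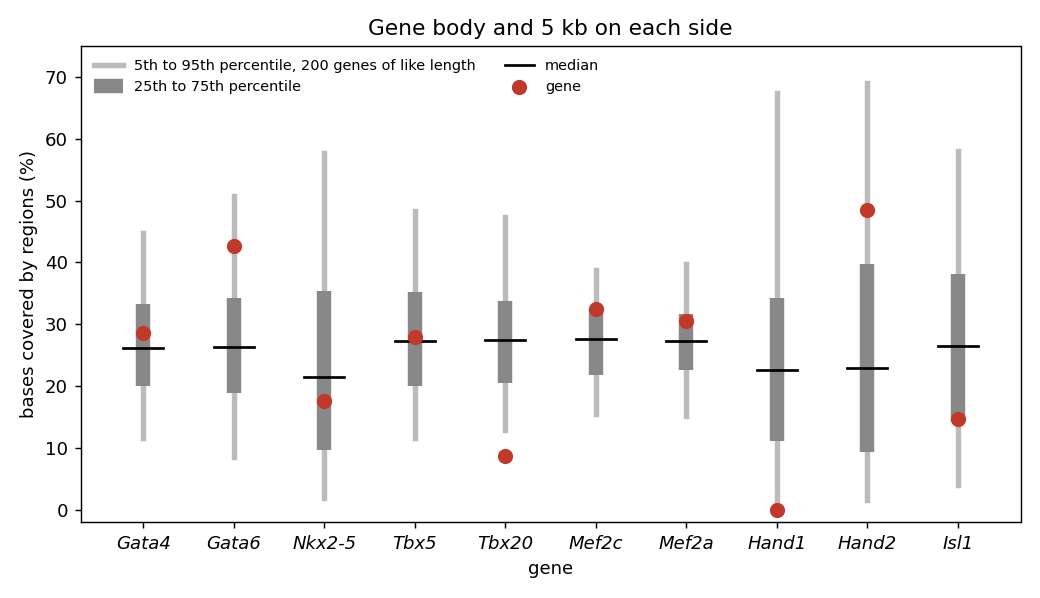
Share of the bases of each gene window, 5 kb at either side included, that lay in regions, in percent (red points), beside the median (black line), the 25th to 75th percentile (dark bar) and the 5th to 95th percentile (light bar) of the 200 protein-coding genes nearest in length. Tbx20 at 8.64% and Hand1 at 0% lie below the light bars, and no gene lies above them.

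Over the 10 windows, the covered share ranged from 0% to 48.4% with a median of 28.3%, and the median of all protein-coding genes was 25.2%. The share exceeded the median of genes of like length in 6 of 10 genes, against 50.1% of all protein-coding genes, and these were Gata4, Gata6, Tbx5, Mef2c, Mef2a and Hand2. Gata6 had a higher share than 180 of its 200 genes of like length and Hand2 than 167, whereas Isl1 exceeded 53 and Nkx2-5 83. As a list the genes were therefore placed near the middle of all genes, and single genes were placed near the ends. Measured as regions per kb, the median was 0.182 against 0.228 for all protein-coding genes, and 3 of 10 genes were above the latter. These values depend on how regions are divided, since with regions within 500 bp joined they became 0.115, 0.166 and 1 of 10 genes, and with regions of at least 600 bp 0.0947, 0.114 and 4 of 10. The measures parted in Gata6, where 5 regions covered 42.7% of the window at 0.116 regions per kb.

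**Figure D3:**
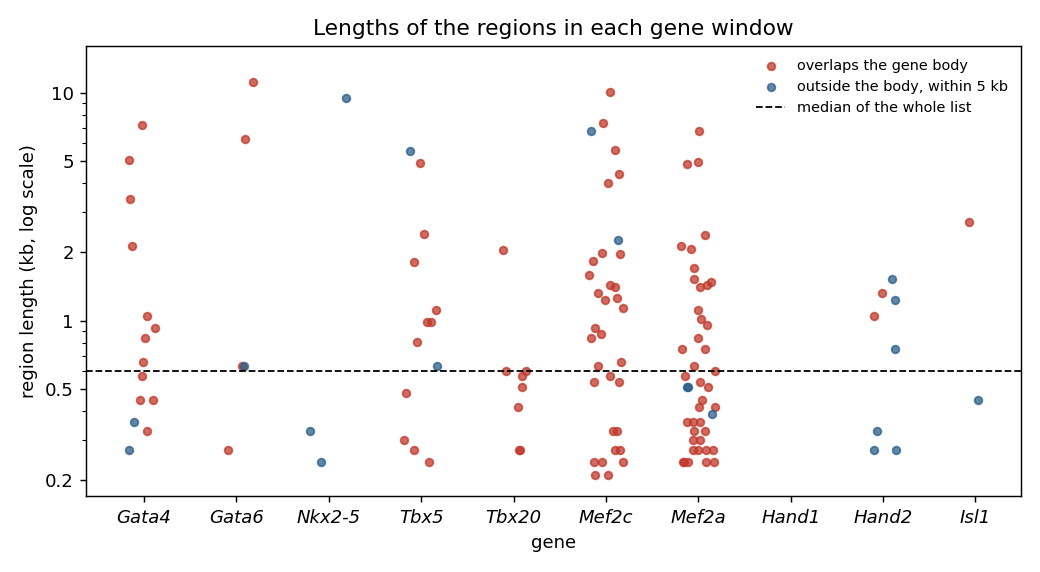
Length in kb, on a log scale, of each of the 131 regions in the windows of the 10 genes, in red where the region overlaps the gene body and in blue where it lies outside the body within 5 kb of it. The dashed line is the median of the whole list, 600 bp, and the longest regions are those of Gata6, Mef2c and Nkx2-5.

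The regions of the 10 windows had a median length of 630 bp, where that of the list was 600 bp. Lengths of at least 5 kb were found in 11 of 131 regions, or 8.40%, compared with 4.19% of the list. These broad regions belonged to Mef2c (4), Gata4 (2), Gata6 (2), Nkx2-5 (1), Tbx5 (1) and Mef2a (1), whereas Tbx20, Hand2 and Isl1 had none. A long region is more likely than a short one to touch any given window, so the shares are not like for like. By annotation, 86 of the 131 regions were confined to introns, 16 overlapped coding exons without reaching the gene start, 6 overlapped only untranslated parts of exons, 3 lay over the start, 8 were upstream and 12 downstream of the gene. Of the intron regions, 28 lay in Mef2c and 34 in Mef2a, whose bodies are mostly intron.

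Coding sequence was touched by a region in 7 of 10 genes, against 70.9% of all protein-coding genes, with Nkx2-5, Tbx20 and Hand1 as the exceptions. The covered share of the coding bases was 88.4% in Gata6, 38.0% in Mef2c, 36.5% in Mef2a and 33.2% in Tbx5. It was 29.95% in Hand2, 26.9% in Isl1 and 6.61% in Gata4. The median of the 10 genes was 17.1% for all exon bases, untranslated ones included, against 18.7% for all protein-coding genes. It was 28.4% for coding sequence and 28.6% for introns, where the medians of all protein-coding genes were 18.1% and 24.6%. With bases pooled over genes, the shares were 30.7% against 25.9% for coding sequence and 29.9% against 27.5% for introns. For all exon bases the pooled shares were 24.8% against 26.6%. Gata4 and Gata6 thus differed here as they did at their starts, although their introns were covered to a similar extent, 32.1% and 34.5%.

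**Figure D4:**
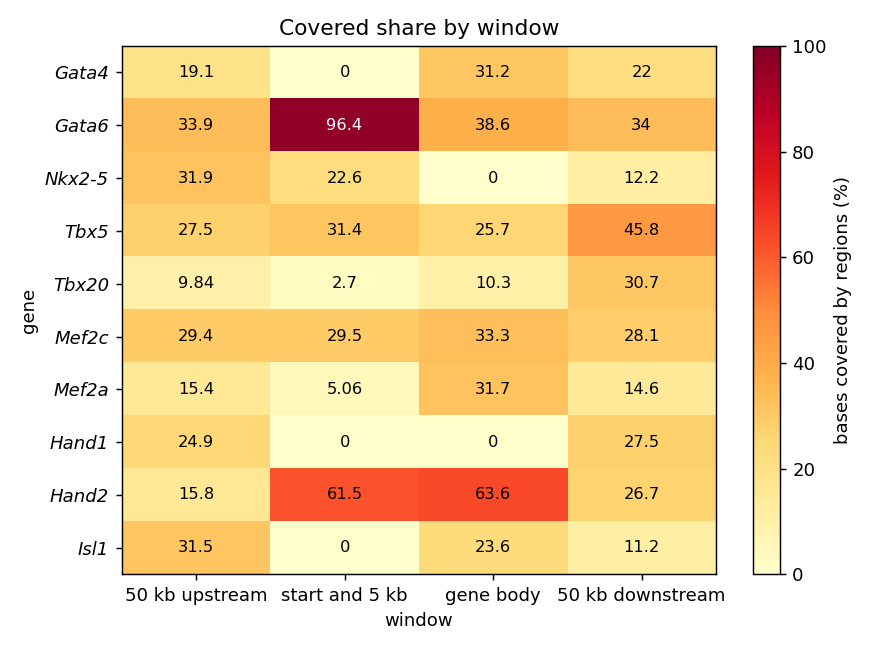
Share of bases covered by regions, in percent, for each gene (lines) in the 50 kb upstream, within 5 kb of the start, in the gene body and in the 50 kb downstream (columns), with darker colour for a higher share. Gata6 at 96.4% and Hand2 at 61.5% stand out around the start, whereas the flanks run from 9.84% to 45.8%.

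Around the gene starts, in a shorter window, the genes were spread more widely than in their flanks. The same held for all protein-coding genes, whose 25th to 75th percentiles were 7.85% to 40.5% within 5 kb of the start and 19.8% to 31.0% in the flanks. Within 5 kb of the start the covered share had a median of 13.8%, against 22.2% for all protein-coding genes, and it was at least 50% in 2 of 10 genes, Gata6 and Hand2, against 16.3% of all protein-coding genes. The median over the 10 genes depended on the window, being 2.57% within 2 kb of the start and 30.6% within 10 kb. It was 30.5% when the most covered annotated transcript start of each gene was taken and 8.88% with regions of at least 600 bp. Medians of all protein-coding genes are not given for these settings, so whether the place of the 10 genes changed cannot be told. The main median also rested on single genes, since leaving out each in turn gave 5.06% to 22.6%. For the 50 kb flanks of both sides combined the share was lowest in Mef2a at 14.97% and highest in Tbx5 at 36.7%, with a median of 21.7% against 25.2% for all protein-coding genes. This order turned with the width, since 20 kb flanks gave 30.7% against 24.4%, while 100 kb flanks gave 23.7% against 25.4%. The 50 kb flanks were covered less than the median of genes of like length in 6 of 10 genes, against 49.9% of all protein-coding genes. These comprised 5 of the 7 genes without a region over the start (52.6% of such genes overall) and 1 of the 3 with such a region, Hand2 (41.4%). The sides could differ, as 31.5% of the upstream and 11.2% of the downstream flank of Isl1 were covered, and 31.9% and 12.2% of those of Nkx2-5, with the opposite order in Tbx20. Across the 10 genes, the covered share of the window and that of the flanks had a Spearman's rho of 0.0909. Across all 22367 protein-coding genes it was 0.264, a description in which neighbouring genes share bases and are not independent replicates.

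Base composition was compared because it can affect both library preparation and mapping. The windows of the 10 genes had a median GC content of 46.3%, compared with 44.6% for all protein-coding genes. In 7 of the 9 genes with regions, the bases inside regions had a lower GC content than the rest of the window, as in 61.4% of the 21799 protein-coding genes that could be compared. The largest difference was that of Nkx2-5, with 43.0% against 53.6%, and others were small, such as 40.6% against 40.8% in Tbx20. The exceptions were Gata6, with 46.4% against 44.5%, and Mef2c, where both were 37.5%. Across all protein-coding genes, the GC content and the covered share of the window had a Spearman's rho of -0.0538. The part of base composition in the covered shares was not tested further than by the choice of genes alike in GC content as well as in length. Against these, Tbx20 ranked at the percentile 2, Hand1 at 2, Gata6 at 86 and Hand2 at 88.

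Motifs of the factors themselves were counted in the 10 windows, on both strands. Inside regions, which made up 179.1 kb, GATA matches occurred at 0.743 per kb, and outside them, in 455.8 kb, at 0.788 per kb. The corresponding values were 2.38 and 2.76 for the NK2 letters, 0.503 and 0.566 for the T-box letters and 4.77 and 5.16 for the E-box. The MEF2 letters had 26 matches inside (0.145 per kb) and 51 outside (0.112 per kb), 14 of the 26 in Mef2c, and 3 of the 10 windows had no MEF2 match. Each gene was left out in turn, an alternative chosen after seeing the data, and without Mef2c the order turned for GATA, to 0.726 per kb inside and 0.706 outside, and for MEF2, to 0.0979 and 0.103. It turned for no other motif or gene left out. Base composition also differed between the parts, though hardly in Mef2c, and its share in these values was not tested.

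**Figure D5:**
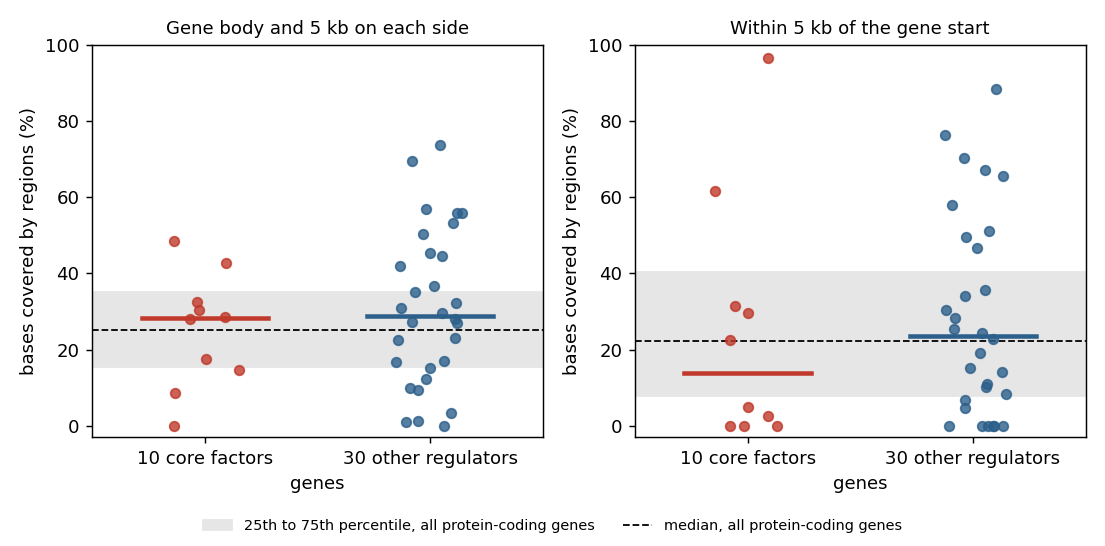
Share of bases covered by regions, in percent, in the 10 core factor genes (red) and 30 other transcription regulator genes (blue), for the body with the 5 kb at either side (left) and within 5 kb of the start (right), with the median of each list as a thick line. The dashed line and the grey band are the median and the 25th to 75th percentile of all protein-coding genes.

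A list of 30 other transcription regulators comprised further GATA, T-box, NK2, MEF2, Iroquois, Hey and Fox genes and cofactors such as Myocd and Zfpm2. It also took in family members that are not mainly genes of the heart, such as Gata2, and was described in the same way. The median covered share of these 30 genes was 28.9%, close to the 28.3% of the 10 core genes, and the share ranged from 0% to 73.7%. By other measures the lists were farther apart, with a median share within 5 kb of the start of 23.5% against 13.8% and a median density of 0.252 against 0.182 regions per kb. The size of the gap in the start share depended on single core genes, since leaving out each in turn gave 5.06% to 22.6%. All of these values stayed below 23.5%. A region lay over the start in 9 of 30 and in 3 of 10 core genes, against 24.2% of all protein-coding genes. A region within 5 kb of the start was found in 24 of 30 and in 7 of 10, against 90.5%. The highest shares were those of Hey2 (73.7%), a Notch target, Foxc2 (69.6%), a forkhead gene of vessels and valves, and Tbx18 (56.9%), an epicardial T-box gene. The lowest were those of Isl2 (0%), the paralogue of Isl1, Gata2 (1.17%), a blood and endothelial GATA gene, and Irx5 (1.26%), an Iroquois gene. Gata6 and Hand2 were thus less covered than the 3 highest of this list, and Isl2, like Hand1, had no region. Genes of a family could lie far apart, as did Gata2 and Gata6 (42.7%) or Tbx20 (8.64%) and Tbx18.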

How the data were processed

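BRG1 ChIP-seq of PBS- and Tβ4-primed, injured hearts comprised 8 libraries. Per the submitters' processing notes and the study's methods, reads were mapped with Bowtie 1.0.0 to mm9 and regions were called with MACS2 2.0.10, and how the duplicates were combined is not given in the sources used here. The deposited list holds the start and end of each region in bp, with no score. All region ends lay within the chromosomes of mm9 and no regions overlapped.

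Genes were taken from GENCODE vM1. Windows, covered bases and region counts were computed with Python 3.11.15, numpy 2.4.6, pandas 2.3.3 and scipy 1.17.1, and were tested on simulated regions against bedtools 2.31.1, with equal values in 37273 of 37273 windows. The main comparison set was the 200 protein-coding genes nearest in length. Positions were counted from 1. Figures were drawn with matplotlib 3.10.9. Sequences were read from mm9, and some of them are not reported here. RefSeq promoter entries, of build GRCm38, gave 8 starts of 6 members in mm9 and were used only to check the gene starts. Those of Gata4, Gata6, Tbx5 and Hand1 could not be checked in this way. Of these 8, 5 were equal to the gene start, 1 differed by 1 bp, and 2 lay 19622 and 69732 bp inside Mef2c, both outside regions.

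All 10 members were named, of 30 other regulators the 3 highest and the 3 lowest, with Myocd and Zfpm2 as examples of cofactors, together with genes next to a member. Members and lists were chosen with earlier results of these data known. Alternatives were joined regions, a minimum length, no regions longer than 100 kb, region midpoints and sequenced bases only. Further ones were other windows, transcript starts and comparison sets, and leaving out each member.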

Additional observations from a re-analysis of the deposited data

How the results depend on the processing

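No paired analysis was possible because the list names no replicate and gave no test, and for the same reason no replicate could be left out. Apart from leaving out genes, 48 values under alternatives were compared with the 7 main values, and 2 moved by the measure used. For counts this was a factor of 1.5, and for medians the 95% interval of the median over the 10 genes. That interval reflects the spread between the chosen genes, not an error of the values, so it cannot show that a median was stable. Leaving out regions longer than 100 kb, or counting sequenced bases only, changed none of these values and so was no test. The number of genes with a region over the start rose from 3 to 5 when any annotated transcript start counted, by the way this alternative is built. The median covered share of the 50 kb flanks fell from 21.7% to 18.6% when only regions of at least 600 bp were kept, which was below its interval, 20.3% to 33.9%. Dropping regions can only lower a covered share, so the direction of this move was fixed by its construction.

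For the other medians this says little, since their intervals were wide, 0% to 61.5% for the share within 5 kb of the start, 8.64% to 42.7% for that of the windows and 0.0934 to 0.290 regions per kb for the density. The start share, with a main value of 13.8%, ran from 2.57% to 30.6% within its interval. The density, with a main value of 0.182, ran from 0.0947 to 0.193. Changes of this size were thus not counted as moved. That of the flanks ran from 18.6% to 30.7%. The number with a region near the start was 5 within 2 kb, 6 to 8 within 5 kb and 10 within 10 kb. Over all alternatives, other window widths included, the number above the like-length median was 5 to 7. The median covered share of the windows ran from 25.2% to 30.5% over the same kinds of alternatives. With each gene left out in turn, the medians were 27.99% to 28.7% for the windows, 0.169 to 0.196 for the density and 21.4% to 22.1% for the flanks. Depth and replicate spread are unknown, so regions missed for lack of reads cannot be told from regions without BRG1.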
